A study of Danio rerio with 20 samples.

Results

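Larvae kept in lithium cobalt oxide (LCO) nanosheets at 1 mg/L were compared directly with larvae kept in an ion treatment, to show how the low particle dose and the ion treatment differ. The comparison took the 5 libraries labelled LCO 1 mg/L and the 5 labelled Ion, 10 of the 20 libraries of the series, and read the untreated level beside each difference. All libraries came from whole wild-type zebrafish (Danio rerio) larvae of a strain given only as WT. The larvae were fed a larval food powder, were 10 days post-fertilization when sampled and had been exposed for 48 hours. Each library was made from a pool of 20 larvae. The 5 untreated libraries (control) received neither exposure, and a further 5 received LCO at 10 mg/L. The labels give neither the ions nor the dose of the ion treatment.

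LCO is a layered cathode material of lithium-ion batteries. In water it can release lithium and cobalt, so an ion treatment is commonly run beside the particles to separate dissolved metal from the solid. As background, cobalt ions can stabilize hypoxia-inducible factors, and oxide particles can form reactive oxygen species at their surface. Neither process was measured here. Abundance was measured per transcript, in CPM (a transcript's share of the estimated counts of its library, scaled to a common total and corrected for library composition by TMM). The transcript identifiers could not be paired with genes by the tables used here, so transcripts are given by identifier and no gene or pathway is named. Whole larvae were sequenced, so fewer cells of a type and less RNA per cell cannot be told apart.

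The 1 mg/L libraries held 30439905 to 52060281 estimated counts in total, and the ion libraries held 35012696 to 49469173. The number of transcripts with at least 1 count was 43805 ± 561 at 1 mg/L and 44498 ± 476 under ion (SD, n = 5 each), and the exact two-sided permutation p was 0.0794, or 0.397 after adjustment over the 5 library measures compared. For the other 4 measures, which were the total, the TMM factor, the fragment length gap and the share of counts in the 100 most abundant transcripts, the adjusted exact permutation p ranged from 0.556 to 0.770. With 5 libraries against 5 the smallest p possible was 0.00794. The fragment length gap, the transcript length less its effective length, was 161 ± 4.39 bases at 1 mg/L, 158 ± 6.06 under ion and 152 ± 5.98 in controls.

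Larvae at 1 mg/L held less of many transcripts than larvae under ion, and slightly more of a smaller number. Of 39355 transcripts tested by edgeR's quasi-likelihood test, 2380 differed at an adjusted p under 0.05, which is 6.05%. At 1 mg/L, 1751 were lower (4.45% of those tested) and 629 were higher (1.60%). The differences were unequal in size. The median fold of the 1751 lower transcripts was 1.73, and 584 of them were at least 2-fold lower and 120 at least 4-fold lower. The median fold of the 629 higher transcripts was 1.20, and 26 of them were at least 2-fold higher. The median log2 fold change of all 39355 was -0.0129, and 51.9% lay below 0. Without ion replicate 4 the count of calls was 1559, of which 317 were higher, and without ion replicate 6 there were 351 higher. DESeq2 called 4258, with 2408 lower and 1850 higher, a more even split.

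**Figure D1:**
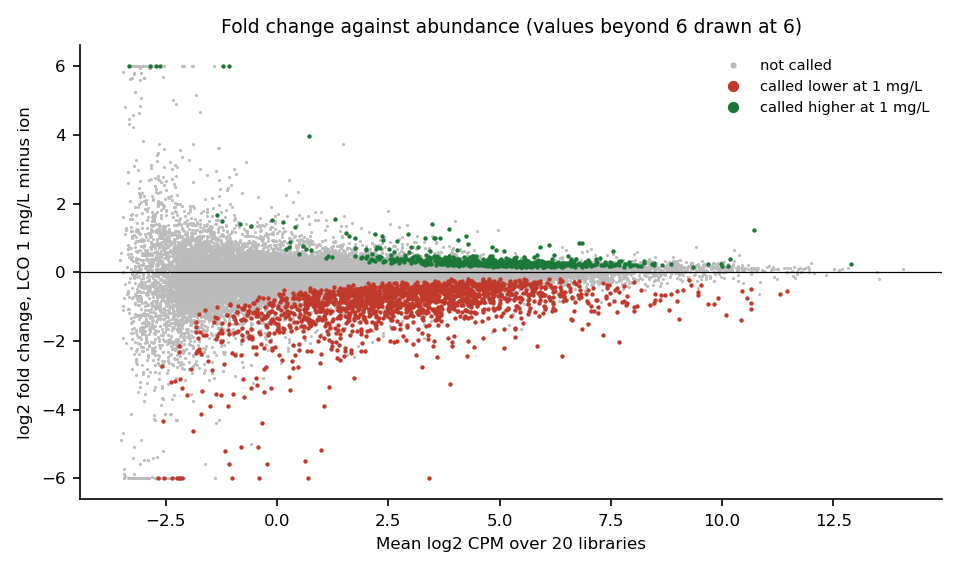
Each point is 1 of the 39355 tested transcripts, placed by its mean log2 CPM over the 20 libraries and by its log2 fold change between LCO 1 mg/L and ion, with values beyond 6 drawn at 6. The 1751 transcripts called lower at 1 mg/L spread over larger fold changes than the 629 called higher, which lie mostly close to 0 and at high abundance.

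The lower transcript with the largest fold change, among those at a mean log2 CPM of at least 1 whose groups did not overlap, was ENSDART00000169128.2. Its length was 1251 bases. The transcript was at 0 CPM in each of the 5 libraries at 1 mg/L. Under ion it was at 109, 61.3, 96.1, 92.2 and 131 CPM in replicates 1, 2, 3, 4 and 6. The untreated libraries held more still, from 152 to 370 CPM, and the ion libraries lay below all of them. The mean under ion was 97.9 ± 25.4 CPM (SD, n = 5), so the level at 1 mg/L was at least 6492-fold lower, taking 3 counts over the group as the floor (edgeR adjusted p = 0.000245). That floor covers counting error only. At 10 mg/L the transcript was at 36.1, 52.4, 53.4, 0 and 32.7 CPM in replicates 1, 2, 3, 4 and 6, so 1 library of that dose was also at 0. Ion did not pass against control (245 ± 79.5 CPM in controls, edgeR adjusted p = 0.54). The call against ion was lost with limma-voom (adjusted p = 0.738) and with only the libraries apart on the first principal component, described below (edgeR adjusted p = 0.137). The fitted log2 fold change was -12.86 and -14.90 in these settings and -14.91 with all libraries.

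Of the other lower transcripts within those limits, ENSDART00000173034.2, 4563 bases long, had the smallest p. It was at 6.30, 6.12, 9.03, 7.57 and 7.65 CPM in LCO 1 mg/L replicates 1, 2, 3, 5 and 6. Under ion it was at 15.4, 15.9, 15.3, 17.1 and 13.4 CPM in replicates 1, 2, 3, 4 and 6. That these groups did not overlap was required by the limits. The untreated libraries, from 19.6 to 23.9 CPM, lay above both groups. The means were 7.33 ± 1.18 CPM at 1 mg/L and 15.4 ± 1.35 CPM under ion (SD, n = 5), a 2.10-fold difference (log2 fold change -1.07, SE 0.11, edgeR adjusted p = 6.75e-05). Larvae at 10 mg/L lay between, at 11.8 ± 1.47 CPM, and below controls (21.3 ± 1.67 CPM, edgeR adjusted p = 0.000392). Ion was 1.38-fold below control, which did not pass (edgeR adjusted p = 0.134).

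The higher transcript with the largest fold change, among those at a mean log2 CPM of at least 1 whose groups did not overlap, was ENSDART00000173762.2, 1932 bases long. It was at 2.72, 2.85, 3.32, 3.38 and 6.26 CPM in LCO 1 mg/L replicates 1, 2, 3, 5 and 6. Under ion it was at 1.75, 0.844, 1.23, 0.739 and 1.74 CPM in replicates 1, 2, 3, 4 and 6. Replicate 6 stood above the other libraries at 1 mg/L, and the ion libraries lay below every library of the controls and of both LCO doses. The difference was 2.96-fold (log2 fold change 1.56, SE 0.28, edgeR adjusted p = 0.00174). The untreated level was 2.72 ± 0.753 CPM (SD, n = 5), nearer to that at 1 mg/L (3.71 ± 1.46) than to that under ion (1.26 ± 0.479). Neither group passed against control, with edgeR adjusted p of 0.317 for 1 mg/L and 0.191 for ion. With only the libraries apart on the first principal component, 2 in each compared group, the log2 fold change was 1.20. The call was then lost (edgeR adjusted p = 0.195).

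Of the other higher transcripts within those limits, ENSDART00000173065.2, 701 bases long, had the smallest p. It was at 24.0, 21.4, 23.5, 22.0 and 31.6 CPM in LCO 1 mg/L replicates 1, 2, 3, 5 and 6. Under ion it was at 12.8, 10.1, 12.8, 11.7 and 11.3 CPM in replicates 1, 2, 3, 4 and 6. Every library at 1 mg/L lay above every untreated library (15.6 to 20.3 CPM), and every ion library lay below them. The difference from ion was 2.09-fold (log2 fold change 1.06, SE 0.11, edgeR adjusted p = 6.75e-05). The level at 1 mg/L was 1.39-fold above control (edgeR adjusted p = 0.00548), and the level under ion was 1.50-fold below it, which did not pass (edgeR adjusted p = 0.0643). At 10 mg/L the mean was 25.8 ± 3.02 CPM (SD, n = 5), also above control (edgeR adjusted p = 0.00645).

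**Figure D2:**
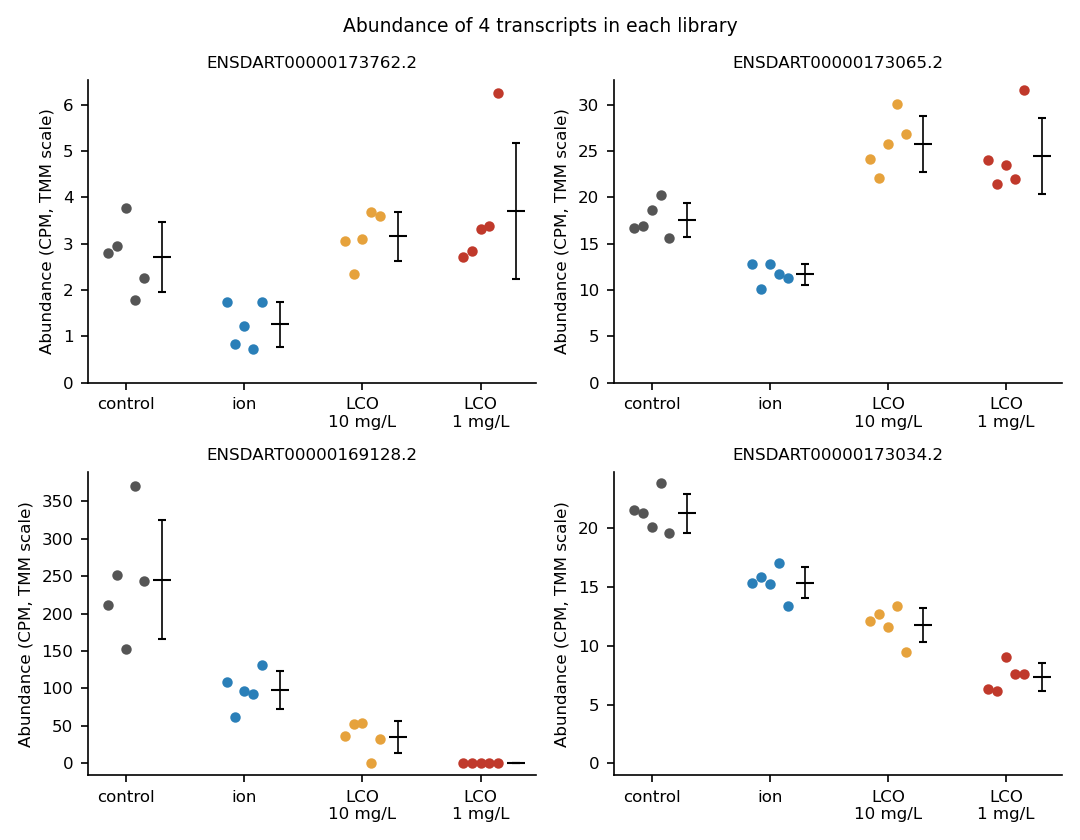
Points are single libraries, in CPM on the TMM scale, and the bar beside each group is the mean ± SD (n = 5). ENSDART00000173762.2 and ENSDART00000173065.2 were lowest under ion, whereas ENSDART00000169128.2 and ENSDART00000173034.2 were highest in controls and lowest at 1 mg/L.

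For most called transcripts the untreated mean lay nearer to ion than to 1 mg/L. On the log2 scale this was so for 1700 of the 1751 lower transcripts (97.1%) and 549 of the 629 higher ones (87.3%), against 59.0% of the 36975 transcripts that were not called. Of the lower transcripts, 1244 (71.0%) had an untreated mean above both groups and 504 (28.8%) had one between them. Of the higher transcripts, 413 (65.7%) had an untreated mean between the groups and 211 (33.5%) had one below both. Among the transcripts that were not called, the untreated mean was above both in 33.9%, between in 29.6% and below both in 36.5%. All controls lay on the same side of the first principal component, described below, whereas each compared group had libraries on both sides. The untreated position was not rerun with that side or with the fragment length gap in the fit. The named higher transcripts, ENSDART00000173762.2 and ENSDART00000173065.2, were both among the 80 (12.7%) with an untreated level nearer to 1 mg/L. In this they were unlike most of the 629.

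The comparisons of 1 mg/L and of ion with control share the 5 controls, and each shares libraries with the comparison between them, so their values are given side by side. Of the 1751 lower transcripts, 1566 were also called lower at 1 mg/L than in controls, where 8.41% of all tested were called lower, and the median fold against control was 1.93. Under ion, 5 of them were called lower and 2 higher than in controls, where 0.0280% and 0.00762% of all tested were called, and the median log2 fold change was -0.14. Of the 629 higher transcripts, 408 were called higher at 1 mg/L than in controls, where 4.34% of all tested were called, with a median fold of 1.18 over the 629. Under ion 1 was called lower than in controls and none higher (0). The median log2 fold change of the 629 under ion was -0.03. These comparisons with control were likewise not rerun with the side of the first principal component or the fragment length gap in the fit.

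The order of the group means was uneven across the lower transcripts. In 1222 of 1751 (69.8%) it ran from control through ion and 10 mg/L down to 1 mg/L, an order seen in 11.3% of all tested transcripts. In a further 451 (25.8%) ion lay above control and the rest of the order was the same, against 5.33% of all tested. Among the 629 higher transcripts, 307 (48.8%) ran from 1 mg/L through 10 mg/L and control down to ion, against 5.14% of all tested. Another 195 (31.0%) ran from 1 mg/L through 10 mg/L and ion down to control, against 7.91%. The place of 1 mg/L and ion in these orders follows from the choice of the transcripts. That of control and 10 mg/L was not set by it directly. The shares of all tested also count transcripts with 1 mg/L and ion the other way round, which cannot show these orders. They are thus too low to set beside the called transcripts. Over all tested, 4439 and 2096 transcripts had the orders named for the lower ones, and 20437 had a log2 fold change below 0. The step between 10 mg/L and 1 mg/L was not tested. Against ion, 15 of the 1751 were called lower at 10 mg/L and 0 higher, where 0.0483% and 0.122% of all tested were called. Of the 629, 38 were called higher at 10 mg/L than under ion and 0 lower. Calls of ion and of 10 mg/L against control are given in other paragraphs.

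The libraries were also described by the median, over the 1751 lower transcripts, of log2 CPM less the untreated mean. At 1 mg/L it lay between -1.141 and -0.675, and under ion between -0.278 and -0.002. The 10 mg/L libraries, which entered the choice of these transcripts through the filter, the scaling and the shared spread of the fit but not through the contrast, ranged from -0.654 to -0.372 and lay between the groups without overlapping either. The controls ranged from -0.14 to 0.144. LCO 1 mg/L replicate 3 was the library of its group nearest to the ion libraries, and it held the highest value of its group in 929 of the 1751 transcripts. Ion replicate 2 was lowest of its group in 678. Over the 629 higher transcripts the median was 0.158 to 0.293 at 1 mg/L and 0.135 to 0.162 at 10 mg/L. Under ion it was -0.086 and -0.076 in replicates 6 and 4 and from -0.021 to 0.01 in the other libraries.

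**Figure D3:**
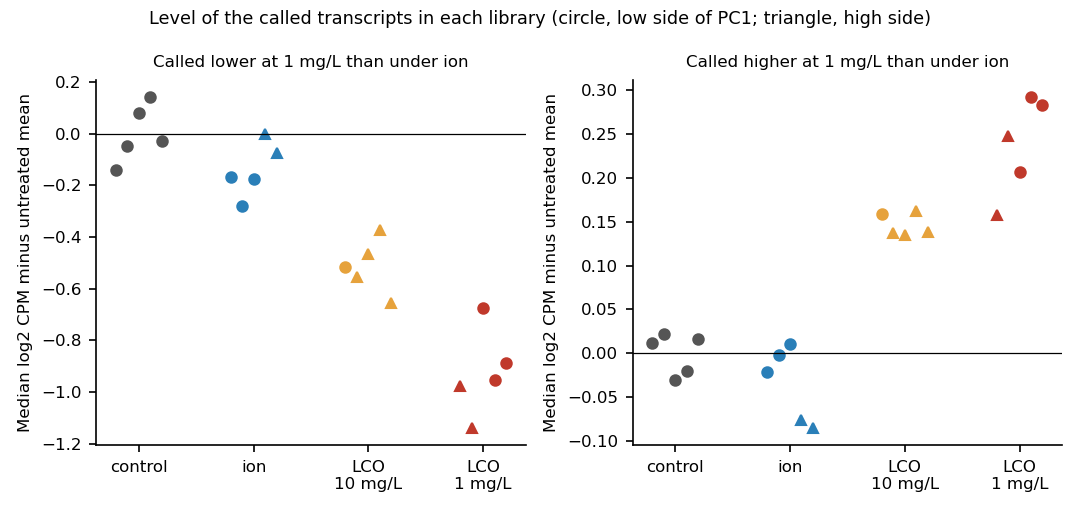
Each point is 1 library, and the vertical axis is the median over the called transcripts of log2 CPM less the mean of the 5 controls. Triangles mark libraries on the high side of the first principal component (PC1). For the 1751 lower transcripts the control and ion libraries overlap. The 10 mg/L libraries lie below those of ion and above those at 1 mg/L, and overlap with neither.

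Together the 1751 lower transcripts took 4.08% ± 0.484 of the counts at 1 mg/L and 6.92% ± 0.394 under ion (SD, n = 5), against 8.05% ± 0.531 in controls and 5.40% ± 0.306 at 10 mg/L. The 629 higher transcripts took 5.22% ± 0.228 at 1 mg/L, 4.28% ± 0.185 under ion, 4.27% ± 0.103 in controls and 4.74% ± 0.234 at 10 mg/L. The fold thus fell on transcripts of unequal abundance. The median of the mean CPM was 32.0 for the higher transcripts and 7.59 for the lower ones, against 3.88 for all tested.

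The calls were compared with those of LCO 10 mg/L against control, which shares no library with the comparison of 1 mg/L and ion. Of the 1751 lower transcripts, 1703 (97.3%) were also lower on average at 10 mg/L than in controls, where 51.3% of all tested lay below 0. Of them, 810 were called lower there, where 3.99% of all tested were called. These 810 were 46.3% of the 1751 and 51.5% of the 1572 called lower at 10 mg/L. Of the 629 higher transcripts, 580 (92.2%) lay above 0 at 10 mg/L, as did 48.7% of all tested, and 144 were called higher, where 2.28% of all tested were called. These 144 were 22.9% of the 629 and 16.0% of the 898. Transcripts are measured in the same libraries and are not replicates of each other. Over all 39355, the fold changes of these comparisons (log2) had a Pearson r of 0.17 and a Spearman rho of 0.29. All controls lay on 1 side of the first principal component and 4 of 5 libraries at 10 mg/L on the other. With the side as a factor, 595 transcripts (1.51% of all tested) were called lower and 373 (0.948%) higher at 10 mg/L than in controls. The shared lower calls were then 19.1% of those lower at 1 mg/L than under ion and 76.6% of the 595, and the shared higher calls were 15.8% and 63.8% of their lists. With a covariate for the fragment length gap, 153 lower (0.389%) and 54 higher (0.137%) calls were left at 10 mg/L. The gap of the 10 mg/L libraries is not given here, so how far it differs from that of controls cannot be read. The shared lower calls were 7.17% of those at 1 mg/L and 83.7% of the 153, and the shared higher calls were 3.54% and 51.9% of their lists. In these settings the lists were called anew. Of the 2391 called lower with the side as a factor, 96.7% lay below 0 at 10 mg/L, and of the 1786 with the gap, 96.3%. The share of all tested below 0 is not given for these settings. In the main fit, too, all 20 libraries set the filter, the scaling and the spread, so the shared calls are not independent of each other. Each covariate was also fitted to all 20 libraries, so the fold changes then drew on shared libraries as well.

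**Figure D4:**
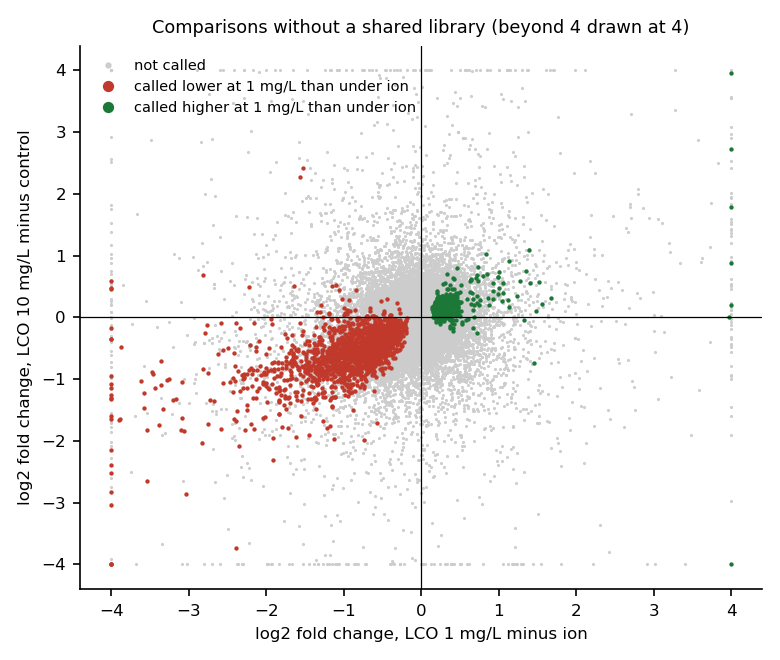
Each point is 1 tested transcript, with the log2 fold change between LCO 1 mg/L and ion on the horizontal axis and that between LCO 10 mg/L and control on the vertical axis, values beyond 4 drawn at 4. These comparisons share no library, and 97.3% of the transcripts called lower and 92.2% of those called higher lie on the same side of 0 on both axes.

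Both groups were parted alike along the first principal component, which took 14.7% of the variance in log2 CPM. LCO 1 mg/L replicates 1 and 2 and ion replicates 4 and 6 had scores of 42.1 or higher. LCO 1 mg/L replicates 3, 5 and 6 and ion replicates 1, 2 and 3 had scores of -20.8 or lower, on the side of all controls. The labels give no batch that matches this separation. The comparison was therefore repeated within each side. With 3 libraries against 3 on the side of the controls, 339 transcripts were lower (0.861%) and 83 higher (0.211%) at 1 mg/L. With 2 against 2 on the other side, 670 were lower (1.70%) and 60 higher (0.152%). Each fit also held the libraries of its side from the groups not compared, which entered the scaling and the spread.

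These comparisons within each side share no library. Of the 339 transcripts lower on the side of the controls, 324 (95.6%) also lay below 0 on the other side, against 61.6% for all tested transcripts below 0 on the first. Their median log2 fold change there was -1.18, and 144 were called lower on both sides, 42.5% of the 339 and 21.5% of the 670. Of the 83 higher transcripts, 76 (91.6%) lay above 0 on the other side, against 66.8%, and 7 were called higher on both. With all 20 libraries and the side as a factor, 2391 transcripts were called lower and 1502 higher, and 2377 of the 2380 calls were among them in the same direction. The side was taken from the same counts and parted both groups alike, so this fit was not a separate check of the calls.

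Groups did not overlap for most calls. All 5 libraries at 1 mg/L lay below all 5 under ion in 1279 of the 1751 lower transcripts, and this held for 4.28% of all tested. All 5 lay above in 393 of the 629 higher ones, and this held for 1.85% of all tested. The call and the lack of overlap rest on the same libraries. Among the 120 transcripts at least 4-fold lower, 94 did not overlap. The median CPM of all 120 was 0.265 at 1 mg/L, 2.12 under ion, 2.33 in controls and 1.05 at 10 mg/L. By contrast, ENSDART00000169128.2, with the largest fold of the named transcripts, was far more abundant under ion. Among the 26 at least 2-fold higher, 15 did not overlap. The median CPM of all 26 was 3.82 at 1 mg/L, 1.06 under ion, 1.43 in controls and 1.45 at 10 mg/L.

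Presence in 1 group and absence from the other was rare. There were 6 transcripts at 0 counts in all 5 libraries at 1 mg/L and above 0 in all 5 under ion, and ENSDART00000169128.2 was the most abundant of them. Of these 6, all were called, where 6.05% of all tested were called, and 3 were above 0 in all 5 controls. In the other direction 2 transcripts were at 0 in all 5 ion libraries and above 0 in all 5 at 1 mg/L, at no more than 0.528 CPM. Of these 2, 1 was called. The choice of these transcripts and the calls rest on the same libraries, so the counts called are not a separate result.

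Calls were unevenly spread over transcript length and abundance. The median length was 2711 bases for the higher transcripts and 1953 for the lower ones, against 1857 for all tested. By quartile of length, with the shortest first, the share called higher went from 0.426% through 1.20% and 2.10% to 2.67%, and the share called lower from 3.11% through 5.10% and 5.65% to 3.93%. Called or not, transcripts of the shortest quartile had a median log2 fold change of -0.027 and those of the longest 0.01. By quartile of abundance, with the lowest first, it went from -0.137 through -0.064 and -0.009 to 0.059. The highest quartile of abundance held 480 of the 629 higher and 576 of the 1751 lower transcripts. Length and abundance were not separated, and their part in the calls was not tested. Of the 100 most abundant transcripts, each at a mean of 1160 CPM or more, 9 were lower at 1 mg/L than under ion, by up to 2.61-fold, and 3 were higher, by up to 2.35-fold. In the highest quartile of abundance 5.85% were lower and 4.88% higher, and among all tested 4.45% and 1.60%.

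**Figure D5:**
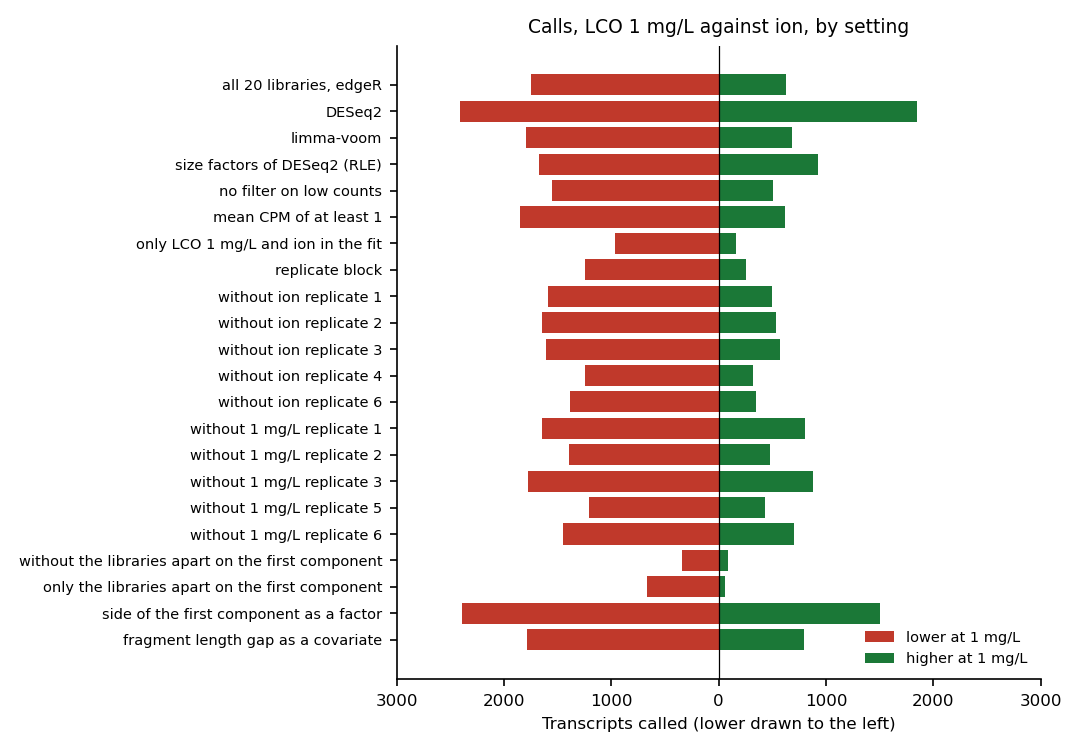
Bars give the number of transcripts called lower (to the left) and higher (to the right) at 1 mg/L than under ion, for the fit of all 20 libraries and for each alternative. In each setting more transcripts were lower than higher, with totals from 422 when the libraries with high scores on the first component were left out to 4258 with DESeq2.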

How the data were processed

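RNA of whole zebrafish larvae was sequenced in 20 libraries, and the authors deposited 1 table per library. The submitters' processing notes name GRCz11 as the build and list FastQC (0.11.5), cutadapt (1.18) and kallisto (0.45.0) as tools. Their settings are not given in the sources used here. Per the file headers, each table holds length, effective length, estimated count and TPM for the same 57775 transcripts. The deposited estimated counts are expected counts that need not be whole, since kallisto shares a read among transcripts it could come from, so a transcript can differ because reads moved between transcripts of 1 gene. The deposited TPM values were not used in any test.

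The counts, rounded, were tested with edgeR 4.0.16 in R 4.3.3 (filterByExpr with a minimum count of 10, TMM, glmQLFit and glmQLFTest, two-sided) in 1 fit of all 20 libraries by group. Calls had a Benjamini-Hochberg adjusted p under 0.05 over 39355 transcripts, and 7431 had an unadjusted p under 0.05. The standard error was the log2 fold change divided by the square root of F. The script was tested on simulated counts drawn independently for each transcript and library. These lack the separation along the first principal component, so they do not give the error rate in the real data. Principal components and library medians used log2 CPM with a prior count of 2. For 5 library measures the exact permutation test was used, two-sided and adjusted over these 5. Alternatives used DESeq2 1.42.0 and limma 3.58.1, other scalings, filters and libraries. No identifier matched the gene tables (0).

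Named transcripts were, in each direction, the largest log2 fold change and, of the others, the smallest p, among calls whose mean log2 CPM was 1 or more and with no overlap between the groups. The compared groups, the lists and this rule were chosen with earlier results of these data known. The labels do not say whether pools shared parents or tanks, so the p-values here reflect variation between pools, which may be technical. No libraries were identical (0), and in the 20 pairs within both groups chi-square divided by its degrees of freedom was 11.9 or more.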

Additional observations from a re-analysis of the deposited data

Results flagged for a closer look

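In 2 of 26 groups of 5 libraries examined, 1 library lay far from the others of its group, and chance alone marks about 1 in 20. Both concern LCO 1 mg/L replicate 6. It held 6.26 CPM of ENSDART00000173762.2, where the other 4 libraries of the group held 2.72 to 3.38 CPM. It also held 31.6 CPM of ENSDART00000173065.2, where the others held 21.4 to 24.0 CPM. Without that library the log2 fold changes against ion were 1.31 and 0.97, and both calls were kept (edgeR adjusted p = 0.00483 and 0.000268).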

How the results depend on the processing

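The excess of lower over higher calls was seen in every setting run. Against 2380 calls, of which 629 were higher, the count was 4258 with DESeq2, which gave no adjusted p for 3068 transcripts. With only these groups in the fit the count was 1119, of which 157 were higher. It ranged from 1559 to 2658 when each of the 10 libraries was left out in turn, and 1531 to 2161 of those calls were also among the 2380. In settings added with the data known it was 422 when the libraries with high scores on the first component were left out. It was 730 with only those libraries, which left 2 in each compared group, and 3893 with the side as a factor. With limma-voom, the size factors of DESeq2 or either other filter it stayed between 2055 and 2605. The size factors of DESeq2 gave the 2605, of which 929 were higher. The fragment length gap as a covariate, also added with the data known, gave 2578. With the replicate number as a block the count was 1494, of which 251 were higher. Deviations of the 4 shared numbers correlated at -0.20 to 0.08, and 1 of 4 correlated best with its own number. The libraries of numbers 1, 2 and 6 lay on opposite sides of the first component in these groups. The correlations therefore cannot decide whether the numbers pair the libraries. The share of lower calls found again at 10 mg/L, 46.3%, was 50.2% with a mean CPM of at least 1, 19.1% with the side as a factor and 7.17% with the gap, and that of higher calls, 22.9%, was 15.8% and 3.54% in the latter settings. The lower calls at 10 mg/L were 3.99% of all tested, and 5.99%, 1.51% and 0.389% in these settings, and the shared calls were 51.5% of them, and 52.5%, 76.6% and 83.7%. The difference of mean totals, which was not called, ranged from -4364486 to 1040608 without each library and turned sign without ion replicate 4 (899736) or LCO 1 mg/L replicates 1 or 3 (1040608 and 299127). The 4 named transcripts kept their direction in all 21 settings, and ENSDART00000173034.2 and ENSDART00000173065.2 kept their calls. Counts summed per gene were not run, because identifiers could not be paired with genes.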
